A study of Mus musculus with 8 samples.

Results

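H19, Meg3, Miat, Six3os1, Neat1, Tug1, Malat1, Gas5 and Snhg11 are 9 named long noncoding RNAs, and their signals were compared in photoreceptor cells of Lpcat1 heterozygous (HZ) and Lpcat1 KO mice. Members were taken by name, and a probe was assigned to a member when the RefSeq accession it carries on the array, of the class used for noncoding transcripts, belonged to that gene. This gave 12 probes for 6 of the 9 genes, out of 56605 probes that were not controls and 22911 genes named on the arrays. Meg3 had 4 probes, Neat1, Miat and Six3os1 had 2 each, and Tug1 and H19 had 1 each. No probe matched Malat1, Gas5 or Snhg11 in this way, so these genes were not analysed here. A further probe carries the name H19 in place of an accession. It lies outside the rule and is described beside the matched H19 probe.

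Lpcat1 encodes an enzyme that attaches fatty acids to lysophosphatidylcholine. There were 4 single-color arrays labelled Lpcat1 HZ and 4 labelled Lpcat1 KO, all from C57BL/6 mice at postnatal day 8. By the study's methods, retinas were dissociated with trypsin and cells carrying CD73, the product of the rod gene Nt5e, were collected on magnetic beads, and the Lpcat1 KO line had been crossed to remove the rd8 mutation of Crb1. The labels number the replicates but do not say whether each is a separate mouse or a pool, so that p-values measure the spread between these samples, which may be technical.

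Long noncoding RNAs are transcripts that do not encode a protein and can act in the nucleus, on neighbouring genes or as hosts of small RNAs. H19 and Meg3 are imprinted and transcribed from the maternal chromosome, H19 beside the growth factor gene Igf2 and Meg3 in a cluster with Dlk1, Rian and Mirg. Neat1 builds the nuclear bodies called paraspeckles, Malat1 resides in nuclear speckles, and Gas5 and Snhg11 host small nucleolar RNAs. Miat is a nuclear RNA of neurons and the retina, Six3os1 is transcribed at the locus of Six3, an eye and forebrain transcription factor, and Tug1 is a widely transcribed RNA that was found in the developing retina. In the RefSeq annotation (GRCm38.p6) the nearest protein-coding genes on either side of H19 are Mrpl23 and Igf2, Dlk1 is the neighbour of Meg3 on the one side, Frmd8 lies beside Neat1, and Six3 overlaps Six3os1.

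H19 and Meg3 contain miRNAs, and the mature forms that RefSeq (GRCm38.p6) places inside each gene are printed because these short products are the part of the transcripts with the clearest sequence-defined role. The seed, bases 2 to 8, is in capitals. Mature miRNAs were not analysed here. H19 holds miR-675-5p at chr7:142577112-142577133 and miR-675-3p at chr7:142577078-142577099, both on the minus strand. Meg3 holds miR-1906 at chr12:109544588-109544609, miR-770-5p at chr12:109563710-109563731 and miR-770-3p at chr12:109563744-109563765, all on the plus strand. The 5 seeds all differ from each other.
mmu-miR-675-5p: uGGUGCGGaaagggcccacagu
mmu-miR-675-3p: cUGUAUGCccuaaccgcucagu
mmu-miR-1906: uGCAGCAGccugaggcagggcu
mmu-miR-770-5p: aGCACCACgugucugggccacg
mmu-miR-770-3p: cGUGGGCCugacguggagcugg

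Signals are given as the log2 of the background-subtracted intensity minus the 75th percentile of the same array, which lay between 882 and 1024 intensity units, so that 0 is the 75th percentile. Differences are KO minus HZ. Probes entered the limma test if 4 or more of the 8 arrays read them well above background, and 34306 probes were tested, 10 of the 12 member probes among them. The study's methods name a fold change of 1.2 with a q-value of 0.05 and a fold change of 1.5 with a q-value of 0.5, called here the stricter and the looser thresholds. Lpcat1 itself did not separate the labels, with a range of -1.17 to -0.81 over HZ arrays and of -1.16 to -0.85 over KO arrays (difference -0.037, standard error 0.11, limma adjusted p = 0.931), so that genotypes are given as labelled. All 8 arrays lay on the same slide, with KO in row 1 and HZ in row 2, and position and genotype cannot be told apart. Rod markers were measured on all 8 arrays for 17 of 17 genes, with group means from 3.72 to 7.43 in HZ. Markers of the retinal pigment epithelium (RPE), which lies against the photoreceptors, were also present and were lower in KO for 17 of 18 tested genes, with a median difference of -1.56. In such sorted bulk samples, fewer cells of a type and less RNA per cell cannot be told apart.

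Of the 10 tested member probes, 0 passed the stricter thresholds, as did 0% of all tested probes. At the looser thresholds the H19 probe was called higher in KO, 1 of 10, and 0 were called lower, where 0.227% of all tested probes were called higher and 0.813% lower. H19 was also the sole member probe whose HZ and KO arrays did not overlap, with KO higher, as for 4.15% of all tested probes. The share with KO lower was 2.1%, and 0 member probes were among them. At an unadjusted limma p under 0.05, 2 member probes were higher, H19 and 1 of Meg3, and 0 were lower, where 4.69% of all probes were higher and 3.48% lower. With the replicate number as a block 4 member probes had such a p, H19 and 2 of Meg3 with higher values and 1 of Six3os1 with lower values. The share of all tested probes with such a p in that fit is not given, so this count is not read as a result about the members. In that fit a Meg3 probe at an unadjusted limma p of 0.0502 had an adjusted p of 0.420. Over all tested probes that fit called 254 higher and 913 lower at the looser thresholds, against 78 and 279. The median difference was 0.15 over the 10 probes, 5 higher and 5 lower, and 0.0023 over all tested probes.

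**Figure D1:**
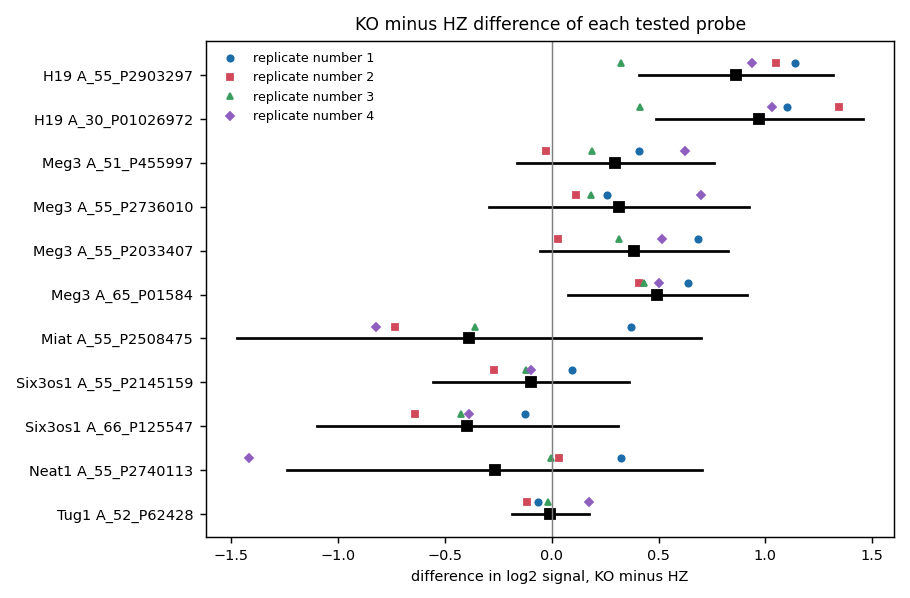
KO minus HZ difference in log2 signal (x axis) of each tested probe (y axis). Black squares are the difference of the group means with its 95% confidence interval from limma, and colored points are the differences between arrays with the same replicate number. The intervals of both H19 probes and of 1 Meg3 probe lie above 0.

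H19 was higher on each of the 4 KO arrays than on any HZ array. Its signal on HZ replicates 1 to 4 was -0.09, 0.51, 0.77 and 0.38, and on KO replicates 1 to 4 it was 1.05, 1.56, 1.09 and 1.32. The gap between the groups lay between HZ replicate 3 and KO replicate 1. The difference was 0.86 (standard error 0.20, 95% interval 0.41 to 1.32, n = 4 and 4, limma adjusted p = 0.370), a fold change of 1.82, and KO was higher within 4 of 4 replicate numbers, by 0.32 to 1.14. The intensities ran from 913 to 2944 units and all 8 arrays were well above background. The probe that carries the name H19 showed the same order of the groups at a lower signal. It read -4.27, -3.83, -3.40 and -3.74 in HZ and -3.17, -2.49, -2.99 and -2.71 in KO, again without overlap (difference 0.97, standard error 0.21, limma adjusted p = 0.362). Both probes report the same RNA samples and are not independent replicates. The H19 call was lost in 6 of 18 alternatives. Without HZ replicate 1, HZ replicate 3, KO replicate 2, KO replicate 3 or KO replicate 4, or with dim probes kept in the test, the adjusted p was 0.622 to 0.747, while the difference stayed between 0.70 and 0.99. With the replicate number as a block the adjusted p was 0.315.

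Igf2, the neighbour of H19 and a fetal growth factor, was the only gene called at the looser thresholds among 26 tested imprinted genes and among 18 tested neighbours and partners of the 9 RNAs. With the replicate number as a block it was again called (limma adjusted p = 0.322), and Kcnq1ot1 joined it among the imprinted genes, with lower values. Its signal was -1.95, -1.65, -1.58 and -1.91 in HZ and -1.36, -0.96, -1.28 and -0.94 in KO. The groups did not overlap. The difference was 0.64 (standard error 0.14, limma adjusted p = 0.362), a fold change of 1.56, with KO higher within 4 of 4 replicate numbers. A further Igf2 probe read -2.99, -3.10, -2.60 and -2.32 in HZ and -2.51, -2.22, -2.33 and -2.09 in KO, and its groups overlapped (difference 0.47, standard error 0.18, limma adjusted p = 0.585). The Igf2 call was lost in the same 6 of 18 alternatives as that of H19. Mrpl23, a mitochondrial ribosomal protein gene on the other side of H19, differed by 0.23 (standard error 0.11, limma adjusted p = 0.639).

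**Figure D2:**
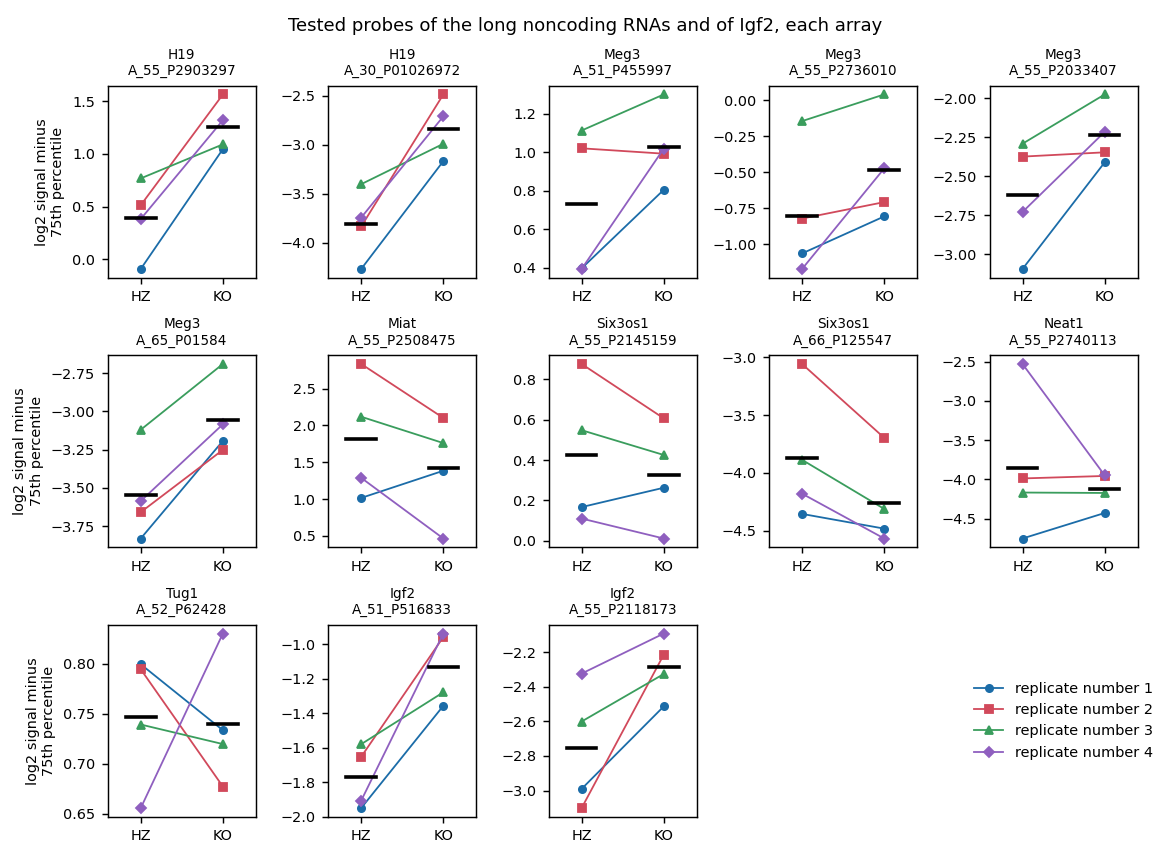
Log2 signal minus the 75th percentile (y axis, a scale of its own in each panel) on the HZ and KO arrays (x axis) for each tested probe of the long noncoding RNAs and of Igf2. Points are arrays, lines join arrays with the same replicate number and black bars are group means. Both H19 panels and the first Igf2 panel show KO arrays wholly above the HZ arrays, and replicate 2 is the highest array of both groups for Miat and Six3os1.

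Markers of other cells differed between the same arrays. The RPE list score, the mean over its genes of the log2 signal minus the gene's mean over the 8 arrays, was 0.05 to 1.32 in HZ and -1.46 to -0.15 in KO, with 12 of 18 tested genes called lower at the looser thresholds and 15 with the replicate block. Rpe65, the retinoid isomerase of the RPE, had a difference of -2.38 and Dct, a pigment enzyme, one of -1.45. Microglia markers were higher in KO for 11 of 12 genes, with a median of 0.78 and scores of -0.73 to 0.47 in HZ and 0.01 to 0.81 in KO, and 0 were called without the replicate block and 8 with it. P2ry12, among these 8, was dim, with a mean of -5.72 in HZ, and well above background on 4 of 8 arrays. Of the 9 red blood cell genes 3 were tested, all with higher values in KO, 0 called without the block and 3 with it, with scores of -1.23 to 0.26 in HZ and -0.69 to 2.16 in KO. Connective tissue markers, a list that holds Igf2, had scores of -0.08 to 0.44 in HZ and -0.23 to 0.10 in KO over 7 of 12 genes, with Igf2 called higher and Ogn, a matrix proteoglycan gene, called lower (-1.98, standard error 0.51). Collagen genes of that list overlapped between the groups, with a difference of 0.10 for Col1a1 and -0.32 for Col1a2 (limma adjusted p = 0.904 and 0.742). Col1a1 was dim, with means of -6.91 in HZ and -6.81 in KO, and well above background on 5 of 8 arrays. Pdgfra of that list was higher in KO by 0.55 (standard error 0.27, limma adjusted p = 0.639), with overlapping groups. Of the 7 tested genes 3 were higher and 4 lower. Vascular markers, with 7 of 12 genes tested, had scores of -0.38 to 0.35 in HZ and -0.45 to 0.36 in KO. Of these genes 0 were called without the replicate block. With it Cldn5 was called higher (difference 1.24) and Kdr lower (-0.795). The part of these cells in the H19 and Igf2 values was not tested.

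**Figure D3:**
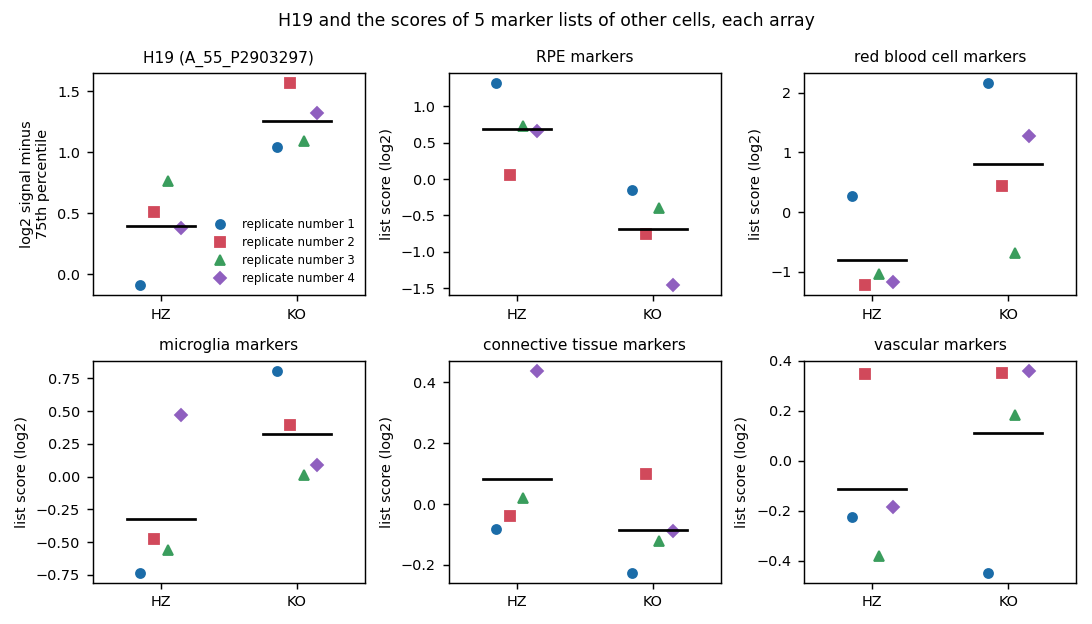
H19 log2 signal (top left) and the scores of 5 marker lists (y axes, log2) on the HZ and KO arrays (x axes). Points are arrays, shaped by replicate number, and bars are group means. H19 and the RPE score separate the groups in opposite directions, while the microglia, red blood cell, connective tissue and vascular scores overlap between them.

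Meg3 was read by 4 probes, 2 for each of 2 transcript accessions, and all had higher means in KO without passing the looser thresholds. The brightest read 0.40, 1.02, 1.11 and 0.39 in HZ and 0.80, 0.99, 1.30 and 1.02 in KO (difference 0.30, standard error 0.20, limma adjusted p = 0.712). HZ replicates 1 and 4 were lowest, and the groups overlapped. The dimmest read -3.83, -3.66, -3.12 and -3.59 in HZ and -3.19, -3.25, -2.69 and -3.08 in KO, a change of 0.49 (standard error 0.18, 95% interval 0.07 to 0.91, limma adjusted p = 0.561), a fold change of 1.41. The other two differed by 0.31 and 0.39 (limma adjusted p = 0.758 and 0.642). When single arrays were dropped the difference stayed above 0 and ranged from 0.19 without HZ replicate 4 to 0.42 without HZ replicate 3 for the brightest, from 0.37 to 0.64 for the dimmest, and from 0.14 without KO replicate 3 to 0.53 without HZ replicate 3 and from 0.23 without HZ replicate 1 to 0.50 for the other two. Within replicate numbers, 15 of 16 differences of the 4 probes were above 0, and the exception was -0.028 in replicate 2 of the brightest. The probes correlated with r of 0.787 to 0.937 over the 8 arrays and read the same RNA, so the 16 values are not independent.

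The other genes of the Meg3 cluster had differences of both signs, none of them called with or without the replicate block. Mirg, a miRNA host RNA downstream of Meg3, read -3.22, -2.60, -2.37 and -3.34 in HZ and -2.84, -2.34, -2.19 and -2.05 in KO (difference 0.53, standard error 0.26, limma adjusted p = 0.642). The difference of Rian, a small nucleolar RNA host of the same cluster, came to -0.25 (standard error 0.22, limma adjusted p = 0.760) and that of Dlk1, a paternally expressed membrane ligand gene, to -0.31 (standard error 0.39, limma adjusted p = 0.828). Over the 26 tested imprinted genes 14 were higher and 12 lower, with a median of 0.037. The largest difference of that list was that of Kcnq1ot1, the antisense RNA of an imprinted domain. Its brightest probe read 3.56, 3.02, 3.36 and 2.98 in HZ and 2.31, 1.68, 2.46 and -1.30 in KO, without overlap (difference -1.94, standard error 0.77, limma adjusted p = 0.585). It was lower within 4 of 4 replicate numbers and was called with the replicate number as a block (limma adjusted p = 0.385). Its 3 other tested probes had differences of -1.01, -0.32 and -0.0064, so that the size depended on the probe.

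Miat spread widely between arrays, by more than its group means differed. Its tested probe read 1.01, 2.84, 2.12 and 1.29 in HZ and 1.38, 2.10, 1.76 and 0.46 in KO. The highest and the lowest array were HZ replicate 2 and KO replicate 4, and the groups overlapped over most of their range. The difference was -0.39 (standard error 0.47, 95% interval -1.47 to 0.70, limma adjusted p = 0.824). It rested on single arrays, at -0.046 when HZ replicate 2 was left out, -0.065 when KO replicate 4 was, and -0.65 when HZ replicate 1 was. The range over the 8 arrays, 2.37, was exceeded by 4.41% of the tested probes. The other Miat probe was not well above background on any array.

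Six3os1 followed nearly the same order of arrays as Miat. Its brighter probe read 0.17, 0.87, 0.55 and 0.11 in HZ and 0.26, 0.61, 0.42 and 0.01 in KO (difference -0.098, standard error 0.20, limma adjusted p = 0.896). The dimmer probe, which carries another accession, read -4.36, -3.06, -3.89 and -4.18 in HZ and -4.48, -3.70, -4.31 and -4.57 in KO, lower in KO within 4 of 4 replicate numbers (difference -0.39, standard error 0.31, limma adjusted p = 0.740, and 0.361 with the replicate number as a block). Without HZ replicate 2 that difference was -0.12. Neither was called. Six3, which overlaps the gene, differed by 0.056 (standard error 0.15, limma adjusted p = 0.925), with 0.60, 1.07, 0.85 and 0.47 in HZ and 0.70, 1.05, 0.83 and 0.64 in KO. The probe sequences, and with them any overlap of a Six3os1 probe with Six3, were not analysed here.

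Miat and Six3os1 were the closest pair among the members. Over the 8 arrays Pearson's r was 0.974 (exact permutation p = 0.000198, adjusted 0.00645 over 65 relations) and Spearman's rho was 0.952 (exact permutation p = 0.00114, adjusted 0.0725). These relations cover 5 members and 11 marker scores, and the test treats the 8 arrays as exchangeable although arrays of the same replicate number were more alike. Without the 2 arrays farthest from the median r was 0.956, and it was 0.980 within HZ and 0.987 within KO, each over 4 arrays. Both RNAs were also high where the progenitor and proliferation markers were high, with r of 0.948 for Miat and 0.968 for Six3os1 (adjusted exact permutation p = 0.00645 and 0.00699, and 0.901 and 0.906 as r without the 2 farthest arrays). That score was -0.51, 0.92, 0.31 and -0.30 in HZ and -0.36, 0.48, -0.04 and -0.49 in KO over 12 of 14 genes, among them the cell cycle gene Ccnd1, and 0 were called without the replicate block and 1, Ccnd1, lower with it. With the markers of Müller glia, the supporting glia of the retina, r was 0.931 for Miat and 0.920 for Six3os1, and with bipolar cell markers 0.919 and 0.893, all at an adjusted exact permutation p of 0.0121. For these scores and for the progenitor score, Spearman's rho of 0.786 to 0.929 did not pass after adjustment (lowest adjusted p = 0.0725). The part of these cells in the Miat and Six3os1 signals was not tested.

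**Figure D4:**
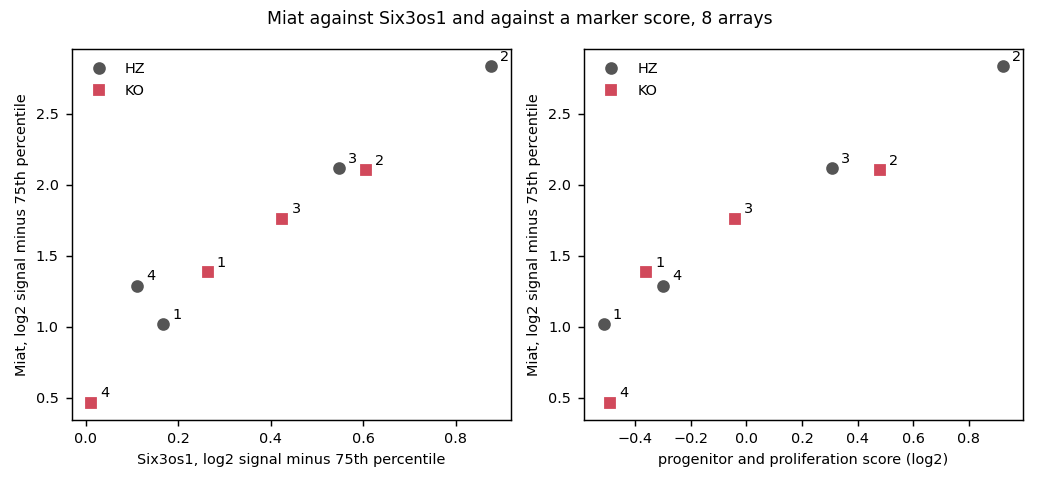
Miat log2 signal (y axes) against the Six3os1 log2 signal (left) and the score of progenitor and proliferation markers (right) on the 8 arrays. Circles are HZ, squares are KO and numbers are replicate numbers. Arrays of both groups lie along the same line, from KO replicate 4 at the bottom to HZ replicate 2 at the top.

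The promoters of Miat and Six3os1 are shown because these genes moved together across the arrays. Each window holds 250 bases before and 50 after the start of the gene, from RefSeq (GRCm38.p6), on the minus strand at chr5:112228899-112229198 for Miat and chr17:85618347-85618646 for Six3os1. Capitals mark every CG.
Miat: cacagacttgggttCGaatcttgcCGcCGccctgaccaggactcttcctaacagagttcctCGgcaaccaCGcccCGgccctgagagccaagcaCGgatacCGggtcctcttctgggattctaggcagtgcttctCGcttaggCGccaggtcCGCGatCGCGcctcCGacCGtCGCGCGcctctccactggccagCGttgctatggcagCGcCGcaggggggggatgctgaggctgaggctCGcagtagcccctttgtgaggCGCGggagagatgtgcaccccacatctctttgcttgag
Six3os1: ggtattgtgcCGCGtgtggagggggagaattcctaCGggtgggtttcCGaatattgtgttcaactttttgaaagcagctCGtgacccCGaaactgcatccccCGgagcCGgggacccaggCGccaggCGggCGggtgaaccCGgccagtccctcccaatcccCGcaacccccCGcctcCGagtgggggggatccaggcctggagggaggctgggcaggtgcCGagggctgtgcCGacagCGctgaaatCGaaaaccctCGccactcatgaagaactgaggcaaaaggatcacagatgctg
Miat holds 25 and Six3os1 20 of these pairs, against a median of 7 over 32851 promoters of the same length, and 18.4% and 26.5% of those hold at least as many. The core letters TAATCC bound by the photoreceptor factors Crx and Otx2, and their reverse complement GGATTA, are in neither window. They are in 7.06% of all promoters. The palindromic letters CAGCTG, bound by proneural factors, are also in neither, and in 16.3% of all promoters.

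Neat1 was dim, with intensities of 36.1 to 153 units on its tested probe. Its tested probe read -4.75, -3.99, -4.17 and -2.53 in HZ and -4.43, -3.96, -4.17 and -3.95 in KO (difference -0.27, standard error 0.42, limma adjusted p = 0.866). HZ replicate 4 stood above the 7 other arrays, and without it the difference was 0.18. The software marked 458 spots of that array non-uniform and 2 to 25 on each other array, and 0 member spots on any array were marked as outliers. The second Neat1 probe was well above background on 1 HZ and 2 KO arrays and was not tested. Genes of paraspeckle proteins, the partners of Neat1, were higher for 20 of 27 tested genes with a median of 0.046, and 0 were called. Of all tested probes with an mRNA accession 58.4% were higher, with a median of 0.036. The core proteins Sfpq, Nono and Pspc1 had differences of 0.026, -0.28 and 0.020 (limma adjusted p = 0.930, 0.763 and 0.967). The neighbouring gene Frmd8 had a difference of 0.23 with groups that did not overlap (limma adjusted p = 0.586).

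Tug1 was the steadiest of the measured RNAs. It read 0.80, 0.79, 0.74 and 0.66 in HZ and 0.73, 0.68, 0.72 and 0.83 in KO. The range over the 8 arrays was 0.17, and 99% of the tested probes had a larger one. The difference was -0.0071 (standard error 0.078, 95% interval -0.19 to 0.17, limma adjusted p = 0.983). Morc2a, the neighbouring gene, differed by 0.15 (standard error 0.094, limma adjusted p = 0.696).

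For the unmatched members only related genes were measured. Small nucleolar RNA hosts, the class of Gas5 and Snhg11, were higher in KO for 11 of 16 tested genes, with a median of 0.10 and 0 called. The largest differences were -0.52 for Snhg7 and 0.41 for Snhg18 (limma adjusted p = 0.690 and 0.718), and Snhg12, at 0.31 (standard error 0.085, limma adjusted p = 0.441), did not reach the fold change. Genes of nuclear speckle proteins, the partners of Malat1, were higher for 13 and lower for 13 of 26, with a median of -0.0005 that changed sign under normexp background correction. Among 18 other named noncoding RNAs 7 were higher and 11 lower, with a median of -0.20 and 0 called. Rmrp, the RNA of an RNA-processing enzyme, had a difference of -0.62 (limma adjusted p = 0.592) and, like Kcnq1ot1, was called in the blocked fit (limma adjusted p = 0.352). Of 7 tested neural and retinal noncoding RNAs 3 were higher and 4 lower, with -0.26 for Vax2os (limma adjusted p = 0.588). Zeb2os had a difference of 1.07 (limma adjusted p = 0.533) and was called with the replicate block (limma adjusted p = 0.396). However, Zeb2os was well above background on 1 HZ and 4 KO arrays, with signals of -6.84 to -5.11 in HZ. It thus entered the test only through the KO arrays, and no change is read from its difference or call. Over all 985 tested probes with a noncoding RefSeq accession the median was -0.025 and 45.9% were higher in KO, with 6 called higher and 14 lower. Over 20700 tested probes with an mRNA accession the median was 0.036 and 58.4% were higher, with 55 called higher and 191 lower. Of all tested probes 0.227% were called higher and 0.813% lower. An unadjusted limma p under 0.05 was found for 9.54% of the noncoding and 9.35% of the mRNA probes.

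The genes most like each member in their pattern over the 8 arrays, out of 14743, were named as a description. For H19 they were Apobec1, Yme1l1 and Zfp704 (r of 0.979, 0.975 and 0.973), and for Meg3 they included Ctdspl and Zbtb16 (0.935 and 0.933). For Miat they were Map6, Gas1 and Dll3 (0.989, 0.988 and 0.984), of which Map6 encodes a microtubule protein and Dll3 a Notch ligand. For Six3os1 they were Nfib, Rtkn and Dchs1 (0.995, 0.993 and 0.992), of which Nfib encodes a transcription factor of late progenitors and glia. For Neat1 they were Cass4, Mpo and Arl5c (0.991, 0.989 and 0.984), and for Tug1 they included Marveld1 and Itpr3 (0.966 and 0.935). Meg3 also ran against the rod marker score, with r of -0.942 (exact permutation p = 0.00141, adjusted 0.0121) for its brightest probe, and r was -0.797 without the 2 farthest arrays. Spearman's rho of -0.786 did not pass (adjusted exact permutation p = 0.182), and r was -0.836 to -0.680 for the other Meg3 probes. That score moved little, from -0.06 to 0.23 in HZ and -0.16 to 0.08 in KO.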

How the data were processed

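Samples were grouped by the labels, 4 Lpcat1 HZ and 4 Lpcat1 KO. The authors deposited, for each array, the spot intensity from Agilent Feature Extraction 10.7.1.1 after background subtraction, with marks for outlier, saturated and well above background spots, and log2 values that GeneSpring had shifted to the 75 percentile, each probe centred on its median, used as an alternative. From the intensity, log2 minus the 75th percentile of each array was computed, outlier spots were dropped and spots of a probe averaged. Probes were named through a RefSeq table (GRCm38.p6), which matched 32994 of 56605. Groups were compared two-sided with limma 3.58.1 in R 4.3.3, p-values were adjusted by Benjamini-Hochberg over all tested probes, and the script was tested on simulated data. A gene outside the members is given by its brightest tested probe. Named genes were the members, the 3 most similar genes of each, list genes past a threshold and, of each list, up to the 4 largest differences. Single list genes with a role in the text were named after their values were seen. A few genes that the naming rule takes in are not reported here. The members and lists were chosen with earlier results of these data known.

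The labels state no pairing of the arrays, and replicate numbers are also the slide columns. Deviations from group means correlated with r of 0.172 to 0.337 for the same number and -0.337 to 0.117 for different numbers. Such deviations cancel out within a group, so both sets of r depend on each other. A pairing of samples and an effect of the slide column cannot be told apart. Saturated spots numbered 0, 59.5% to 64.6% of probes were well above background, and the number of arrays limits the precision. Correlations used SciPy 1.17.1 and NumPy 2.4.6 in Python 3.11.15, and plots matplotlib 3.10.9. Alternatives were quantile normalization, normexp correction (offset 50), another percentile, 2 other filters on dim probes, outlier spots kept, the replicate block, eBayes with trend and robust settings, the methods' t-test, the authors' values and each array left out.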

Additional observations from a re-analysis of the deposited data

Results flagged for a closer look

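In 66 groups of 4 arrays tested for an array far from the others, 4 were found, where chance gives about 1 in 20, or 3.3. The score of neural and retinal noncoding RNAs was 0.26 on KO replicate 2 and -0.07 to -0.03 on the other KO arrays. The score of amacrine, horizontal and ganglion cell markers was -0.35 on HZ replicate 1 and 0.18 to 0.24 on the other HZ arrays. The red blood cell score was 0.26 on HZ replicate 1 and -1.23 to -1.04 on the other HZ arrays. Non-uniform spots numbered 458 on HZ replicate 4 and 2 to 22 on the other HZ arrays. Signals of the member probes were not among the 4.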

How the results depend on the processing

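H19 kept its direction in 18 of 18 alternatives and lost its call in 6, so the number of member probes called higher fell from 1 to 0 with no filter on dim probes, and ranged from 0 to 1 when an array was left out. In those settings calls were also few over all probes: 9 higher with no filter, and 0 to 15 without HZ replicate 1, HZ replicate 3, KO replicate 2, KO replicate 3 or KO replicate 4. Without HZ replicate 2, 361 probes were called higher and 1353 lower. The cause was not tested. With the replicate block, calls over all probes rose from 78 to 254 higher and from 279 to 913 lower, and no member call changed. Member probes at an unadjusted limma p under 0.05 went from 2 to 4, without the share of all probes beside them. Stricter calls over all probes numbered 17 under normexp correction and 0 to 3 under the other methods of normalization and testing. Differences near 0 turned sign: Neat1 to 0.18 without HZ replicate 4 (leave-one-out range -0.56 to 0.18), Tug1 to 0.029 under normexp correction and 0.0096 with the authors' values (leave-one-out range -0.0375 to 0.0139, with 0.0103 without HZ replicate 1, 0.0087 without HZ replicate 2 and 0.0139 without KO replicate 2), and the brighter Six3os1 probe to 0.051 without HZ replicate 2 and 0.0063 without KO replicate 4 (leave-one-out range -0.20 to 0.051). The H19 probe named in the file lost its call in 7 of 18 alternatives, the same 6 (adjusted p of 0.622 to 0.716) and normexp correction, at a difference of 0.57 below the fold threshold. The median of the neighbours and partners, 0.094, was -0.02 under normexp correction. Dim probes such as those of Neat1 and the dimmer Six3os1 and Miat probes limit what these arrays can show.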

Other observations

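Xist, the RNA that coats the inactive X chromosome of female cells, split the arrays without regard to genotype. Its log2 signal was 1.28, 0.93, 1.37 and -6.50 on HZ replicates 1 to 4 and -7.84, 1.22, 1.21 and -7.83 on KO replicates 1 to 4, and it was well above background on 3 HZ and 2 KO arrays. The labels do not give the sex of the mice. On the 2 KO arrays with Xist well above background H19 was 1.56 and 1.09 and on the other two KO arrays 1.05 and 1.32, and on the 3 such HZ arrays it was -0.09, 0.51 and 0.77 and on the other 0.38.

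Dleu2, the host RNA of a miRNA cluster, was higher in KO within 4 of 4 replicate numbers by 0.36 (standard error 0.12, limma adjusted p = 0.511), and Mir22hg, host of another miRNA, was lower in 4 of 4 with -0.43 (standard error 0.15, limma adjusted p = 0.546). Neither passed a threshold. The share of all tested probes with the same direction in 4 of 4 replicate numbers is not given, so this agreement is not read as a result.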
